A study of Homo sapiens with 25 samples.

Results

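The genes described here are 10 DNA helicases of genome maintenance: PIF1, the RecQ family (BLM, WRN, RECQL, RECQL4 and RECQL5), the iron-sulfur helicases BRIP1 and RTEL1, HELB, and the helicase-nuclease DNA2. They are 10 of the 28395 genes in the deposited count table, and all 10 were among the 14658 genes with enough counts to be tested. The other 9 genes were chosen by function, whereas PIF1 was chosen by its measured value, as one of the largest falls in mRNA when TRRAP was degraded. Levels of all members in 5-Ph-IAA against DMSO, and of PIF1 in the other contrasts with 5-Ph-IAA libraries, are therefore given as a description with no p-value, and the number of members past the threshold in 5-Ph-IAA against DMSO is printed only beside that of all genes.

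RNA was sequenced from A549, an established human lung carcinoma line, in a version whose TRRAP protein carries the auxin-inducible degron tag mAID. TRRAP is a scaffold of histone acetyltransferase complexes, and the title of the series links it to mitotic genes that the MMB complex (B-MYB with the MuvB core) transcribes and to sensitivity to CHK1 inhibition. All 12 libraries came from tagged cells synchronized with 2 mM thymidine over 20 h and then kept in fresh medium for 4 h. The 4 groups of 3 libraries were DMSO, prexasertib (a CHK1 inhibitor, 3 h), 5-Ph-IAA (1 µM, 6 h, the compound that triggers TRRAP degradation) and both drugs. The genotype field of the labels reads WT, and the prexasertib dose is not used because its unit differs between labels of the series. The sources used here do not say whether the tagged line is 1 clone, or whether libraries came from separate cultures, so p-values measure the spread between these libraries, which may be technical.

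Helicases use ATP to separate the strands of nucleic acids. PIF1 unwinds G-quadruplexes and RNA-DNA hybrids, removes telomerase from DNA ends and helps forks through hard-to-copy sites. RecQ helicases act on recombination intermediates and stalled forks, and inherited loss of BLM, WRN or RECQL4 causes Bloom, Werner or Rothmund-Thomson syndrome. CHK1 restrains the cell cycle while replication is incomplete, and many genes of genome maintenance are transcribed in S phase or in G2 and mitosis.

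Total counts ran from 10830048 to 17789482 per library. The epithelial keratins KRT8 (3251 CPM, counts scaled to a fixed library total) and KRT18 (2114 CPM) and the cadherin CDH1 (98.8 CPM) were high, while the other epithelial markers KRT19 (4.24 CPM) and EPCAM (0.807 CPM) were low. Of 14 markers that define neurons, endothelium, fibroblasts or blood cells, DCN was at 0 in every library and COL1A1 (31.7 CPM), SNAP25 (48.4 CPM), SYT1 (8.96 CPM) and RBFOX3 (6.23 CPM) were above 1 CPM. The summed level of those 14 was 88.2 to 99.6 CPM in DMSO, 93.4 to 105 CPM in prexasertib, 85.9 to 105 CPM in 5-Ph-IAA and 81.3 to 105 CPM in both drugs. The 4 libraries numbered 3 stood apart from those numbered 1 and 2 of their own groups, with a chi-square per degree of freedom over genes of 13.0 to 19.5, against 2.24 to 3.97 between numbers 1 and 2. Results are therefore given with and without them where that mattered. TRRAP mRNA was 83.2 ± 9.90 CPM in DMSO, 74.8 ± 10.4 in prexasertib, 133 ± 15.3 in 5-Ph-IAA and 119 ± 20.8 in both drugs (SD, n = 3). Its level does not check the labels, because the degron acts on the protein.

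PIF1 mRNA (Gene ID 80119, chromosome 15, 64815632 to 64827062, minus strand, GRCh38.p14) was high with prexasertib alone and low with 5-Ph-IAA alone. In DMSO it was 39.6, 46.6 and 29.0 CPM in libraries 1, 2 and 3. With prexasertib it was 71.5, 84.4 and 104.2 CPM, with 5-Ph-IAA 9.81, 8.89 and 4.93 CPM, and with both drugs 31.2, 30.4 and 29.8 CPM. Every prexasertib library was above every DMSO library, and every 5-Ph-IAA library was below all 9 others. The libraries with both drugs lay within the DMSO range. The group means were 38.4 ± 8.90, 86.7 ± 16.5, 7.88 ± 2.59 and 30.5 ± 0.708 CPM (SD, n = 3) in that order. In the plot of levels by library, PIF1 is the member whose 4 groups lie farthest apart.

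**Figure D1:**
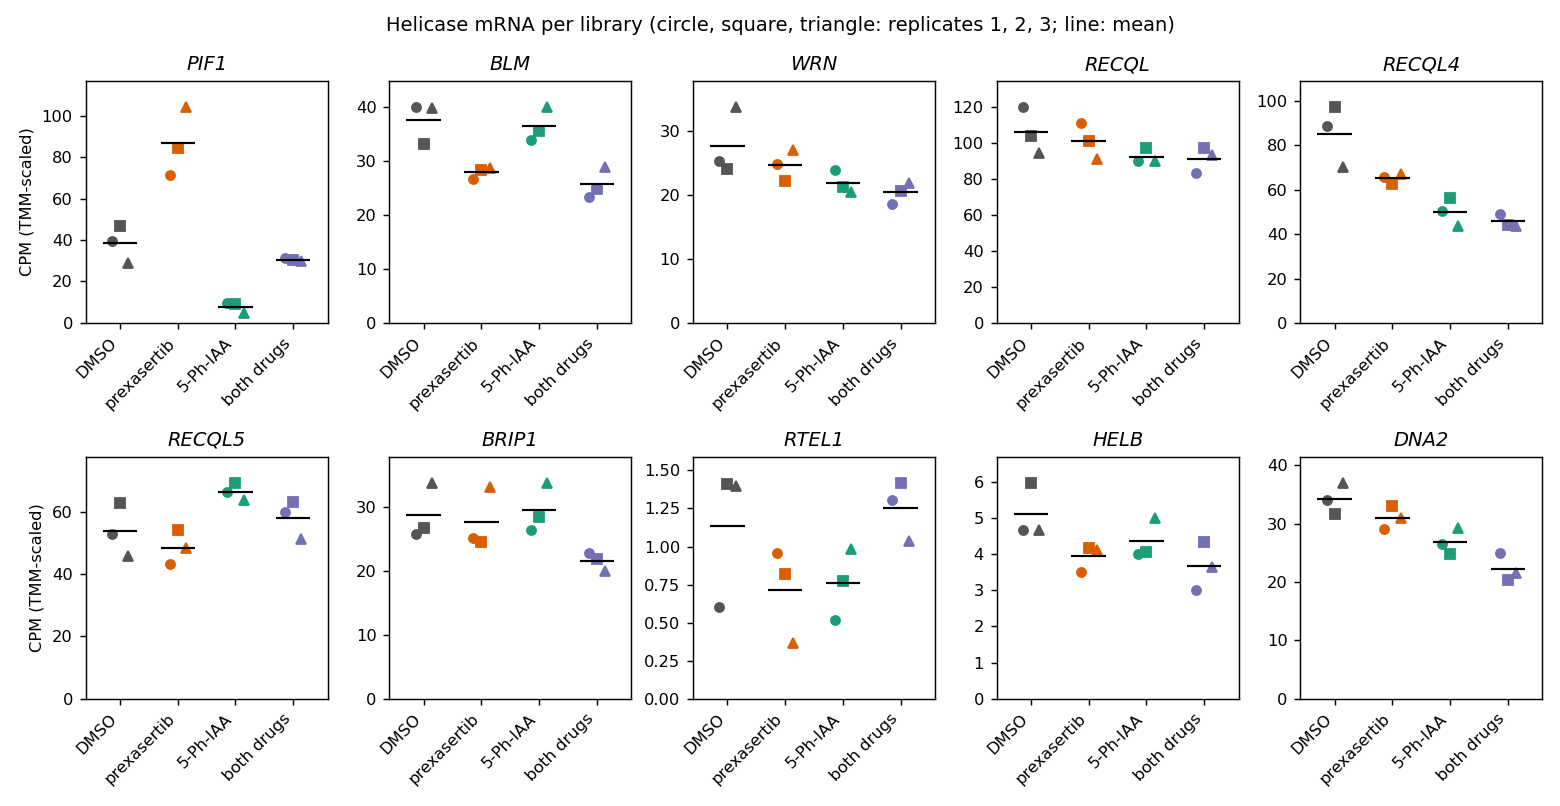
Level of each helicase mRNA in the 12 libraries, in CPM on TMM-scaled library sizes, each panel on its own axis from 0. Points are libraries (circle 1, square 2, triangle 3) and lines are group means. PIF1 runs from 4.93 CPM (5-Ph-IAA) to 104.2 CPM (prexasertib), and BRIP1 with both drugs lies below every other group.

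Prexasertib raised PIF1 mRNA without 5-Ph-IAA by a log2 fold change of 1.18 ± 0.21 (SE), a 2.26-fold rise, with an adjusted p of 0.0072 in edgeR's quasi-likelihood test. With the replicate number as a block the adjusted p was 0.016, without the libraries numbered 3 the log2 fold change was 0.86, and leaving out each library in turn gave 1.01 to 1.34 with the call kept in all 12 cases. This comparison shares its DMSO libraries with the one that chose PIF1. The rise was 0.85, 0.85 and 1.84 on the log2 scale between libraries of the same number, so it was larger in the libraries numbered 3. With TRRAP degraded, PIF1 was 3.84-fold higher with both drugs than with 5-Ph-IAA alone (log2 difference 1.94 ± 0.23), the 7th highest value of the 14658 genes. By number the log2 difference was 1.66, 1.76 and 2.56.

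In the contrast that chose it, 5-Ph-IAA against DMSO, PIF1 was 4.83-fold lower (log2 difference -2.27 ± 0.23), the 4th lowest of the 14658 genes. By number the difference was -2.0, -2.37 and -2.52. With prexasertib present, both drugs against prexasertib gave -1.51 ± 0.21 for PIF1, the 19th lowest, with -1.19, -1.47 and -1.80 by number. The difference between these values, the interaction of the 2 drugs, was 0.77 ± 0.31 on the log2 scale (0.85 without the libraries numbered 3). No other gene of the reference table lies within the PIF1 span or directly beside it. In bulk RNA, a change in the share of cells in a cell-cycle phase and a change in RNA per cell cannot be told apart.

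The genes whose pattern was most like that of PIF1 across the 12 libraries were ZCCHC3 (Pearson r = 0.98), NEURL1B (0.98), KIF20A (0.97), CCNB2 (0.97) and ARHGEF39 (0.97). These are correlations of log2 CPM over 12 libraries among 12558 genes, given as a description, and the libraries share their treatments and batches. KIF20A, a kinesin of cytokinesis, had means of 215, 486, 67.0 and 200.2 CPM in DMSO, prexasertib, 5-Ph-IAA and both drugs. CCNB2, a mitotic cyclin, had means of 202, 318, 97.2 and 177 CPM in the same order. Over the 22 mitotic reference genes r with PIF1 ran from 0.72 to 0.97 with a median of 0.94, while the median over all genes compared was 0.02. All r values include the DMSO and 5-Ph-IAA libraries, whose difference was used to choose PIF1. In that contrast 21 of the 22 mitotic genes were also lower, so their high r was partly set by the choice. Among the other 9 helicases r ran from -0.67 (RECQL5) to 0.51 (RECQL4). With the replicate number taken out, 3 of the 5 genes were again among the 5 most like PIF1. Without the libraries numbered 3 only 1 was, and leaving out single libraries kept 2 (without 5-Ph-IAA replicate 3) to 5, with 3 kept without 5-Ph-IAA replicate 1 or without both drugs replicate 3.

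**Figure D2:**
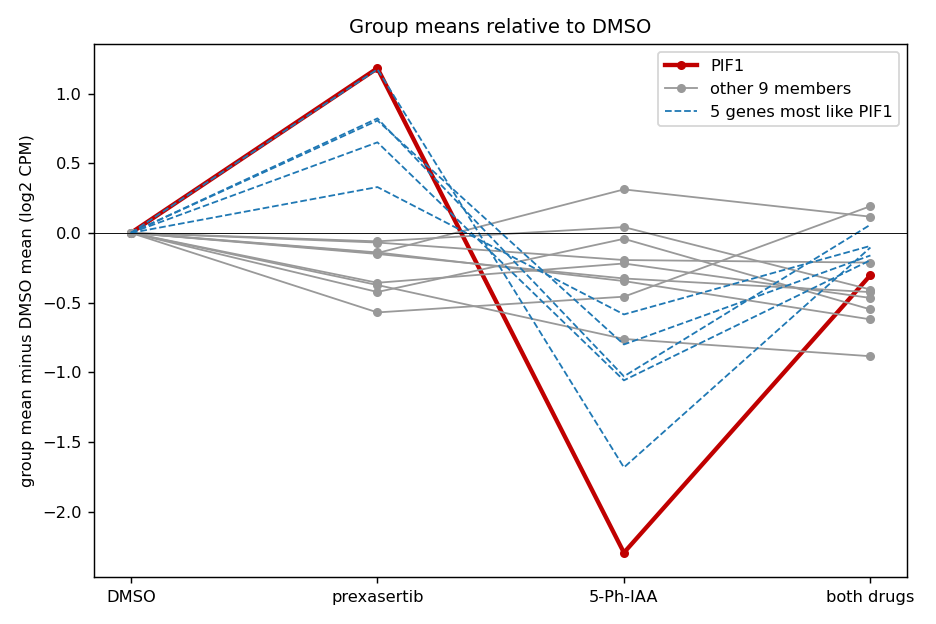
Difference of each group from DMSO in log2 CPM (y axis), by group (x axis), for PIF1 (red), the other 9 helicases (grey) and the 5 genes most like PIF1 (dashed blue). Red and grey values are means of log2 CPM, and blue values are log2 of the mean CPM. The lines only join the points of a gene. PIF1 and the blue genes are up with prexasertib and down with 5-Ph-IAA, and none of the grey genes is above DMSO with prexasertib.

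Most mitotic reference genes changed in the same direction as PIF1. Prexasertib against DMSO called 16 of 22 higher and 0 lower (median log2 fold change 0.52, CDK1 lowest at -0.26, and 20 higher and 1 lower with the block), and both drugs against 5-Ph-IAA called 15 higher and 0 lower (0.69). Both 5-Ph-IAA against DMSO and both drugs against prexasertib called 21 lower and 0 higher (medians -1.02 and -0.85). Over all genes tested 2.36% and 1.17% were called higher in the first 2 comparisons, and 12.2% and 10.4% lower in the last 2. With the block, 1227 of all 14658 genes were called higher and 1432 lower in prexasertib against DMSO. KIF20A rose by 1.17 ± 0.06 with prexasertib (adjusted p 2.9e-07) and fell by 1.68 with 5-Ph-IAA (-1.68 ± 0.06, adjusted p 3.7e-09). Earlier results of these data were known when that list was made, and its part in the change of PIF1 was not tested.

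The promoter letters of PIF1 are shown beside those of KIF20A, CCNB2 and NEURL1B, the 3 of the 5 genes most like it that have a window, and of BLM and BRIP1, which are not among the 5. Each line holds the 150 bases before the start given in RefSeq's promoter windows (GRCh38.p14), read 5′ to 3′ on the gene's strand, and the start used for PIF1 lies inside its annotated span. Capitals mark matches on either strand to the CHR element (TTTGAA and TTTAAA, the second reading alike on both strands), the site class through which MuvB complexes bind mitotic genes, and to the CCAAT box (CCAAT), the site of NF-Y.
PIF1, chr15:64825648-64825797, minus strand: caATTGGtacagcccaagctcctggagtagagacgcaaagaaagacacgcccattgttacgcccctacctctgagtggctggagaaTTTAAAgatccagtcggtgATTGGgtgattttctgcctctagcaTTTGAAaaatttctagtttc
KIF20A, chr5:138178962-138179111, plus strand: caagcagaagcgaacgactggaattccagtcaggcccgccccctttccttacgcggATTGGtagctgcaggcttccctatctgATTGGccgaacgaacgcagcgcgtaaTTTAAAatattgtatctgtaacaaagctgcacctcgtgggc
CCNB2, chr15:59104996-59105145, plus strand: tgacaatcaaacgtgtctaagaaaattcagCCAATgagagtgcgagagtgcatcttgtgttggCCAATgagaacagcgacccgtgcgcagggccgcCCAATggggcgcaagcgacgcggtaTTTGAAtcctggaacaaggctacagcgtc
NEURL1B, chr5:172641113-172641262, plus strand: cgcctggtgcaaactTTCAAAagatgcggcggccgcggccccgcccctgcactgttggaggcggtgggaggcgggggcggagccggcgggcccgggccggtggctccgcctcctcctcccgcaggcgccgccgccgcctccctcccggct
BLM, chr15:90717196-90717345, plus strand: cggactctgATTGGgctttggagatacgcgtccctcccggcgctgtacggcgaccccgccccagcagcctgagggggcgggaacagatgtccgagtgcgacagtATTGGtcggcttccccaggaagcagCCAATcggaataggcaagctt
BRIP1, chr17:61863529-61863678, minus strand: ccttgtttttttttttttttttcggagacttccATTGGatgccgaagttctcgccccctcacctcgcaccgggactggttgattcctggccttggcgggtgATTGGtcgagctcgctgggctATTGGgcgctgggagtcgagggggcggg

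In PIF1 the CHR letters lay 64 to 59 and 20 to 15 bases before the start, and CCAAT letters 148 to 144 and 45 to 41 bases before it. KIF20A held TTTAAA 41 to 36 bases and CCNB2 held TTTGAA 29 to 24 bases before the start. CCNB2 also held TTTAAA 193 to 188 bases before the start, beyond the stretch shown. The share of all windows with CHR letters this near the start was not counted. NEURL1B held TTCAAA, the CHR letters of the other strand, 135 to 130 bases before the start and no CCAAT letters in its window. BLM and BRIP1 also matched CHR, but only beyond the stretches shown, 244 to 239 bases before the BLM start and 240 to 235 and 210 to 205 bases before the BRIP1 start. Over windows of 300 bases (250 before and 50 after the start), CHR letters were in 3 of the 7 members with a window (PIF1, BLM and BRIP1), in 14 of 18 mitotic reference genes and in 23.99% of all 35116 windows. CCAAT was in 6 of the 7 members, in 16 of the 18 mitotic genes and in 34.61% of all windows. E2F letters (TTTGGCGC and TTTCCCGC and TTTGGCGG and TTTCCCGG) were in 1 of 7 members, RECQL, in 8 of 18 S-phase reference genes and in 4.31% of all windows. MYB letters (AACGG) were in 4 of 7 members and 19.7% of all windows, and PIF1 was not among the 4. WRN, RECQL4 and DNA2 were not in the promoter table. A match is a string of letters, not a site shown to be bound.

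**Figure D3:**
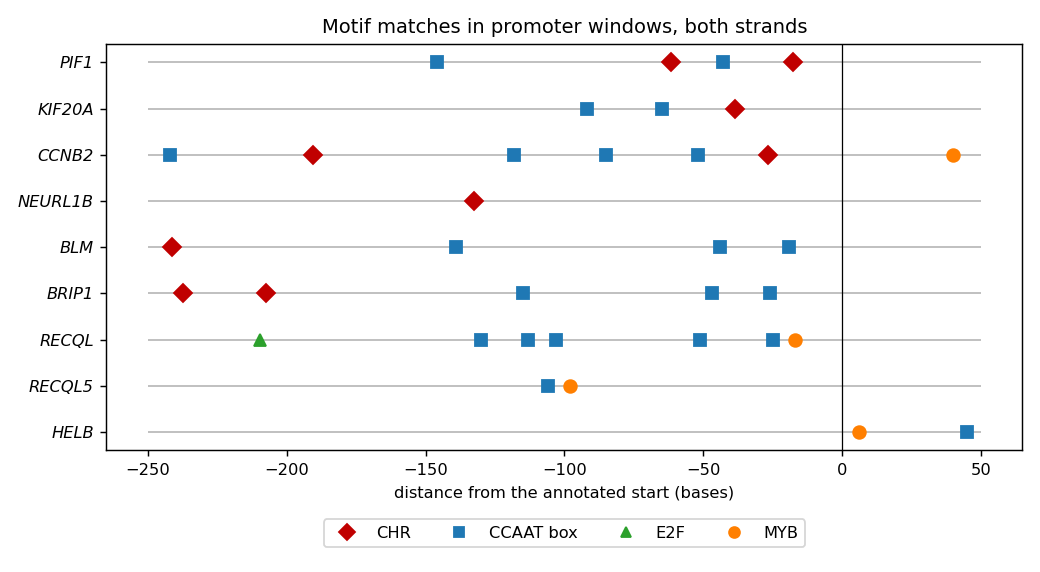
Position of motif matches on either strand in the 300-base promoter windows, in bases from the annotated start (0), for PIF1, 3 genes like it and 5 other helicases. PIF1, KIF20A and CCNB2 each hold a CHR match within 41 bases before the start, whereas that of NEURL1B starts 135 bases before it. PIF1 and CCNB2 each hold a second match, 64 to 59 and 193 to 188 bases before the start. The other helicases with a CHR match, BLM and BRIP1, hold theirs at least 205 bases before. RTEL1, with 2 windows, is not drawn.

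Among the RecQ genes, BLM was the one called lower with prexasertib, whether or not TRRAP had been degraded. BLM (chromosome 15, 90717346 to 90816166, plus strand), the helicase that dissolves double Holliday junctions with TOP3A, was at 39.9, 33.2 and 39.8 CPM in DMSO and at 26.7, 28.4 and 28.7 CPM with prexasertib. With 5-Ph-IAA it was at 33.9, 35.6 and 40.0 CPM and with both drugs at 23.3, 24.8 and 28.9 CPM. In both comparisons every library with prexasertib lay below every library without it. BLM fell by 0.43 on the log2 scale with prexasertib alone (-0.43 ± 0.11, adjusted p 0.038) and by 0.51 after TRRAP degradation (-0.51 ± 0.11, adjusted p 0.024). The replicate block gave adjusted p-values of 0.00041 and 3.8e-05, and leaving out the libraries numbered 3 gave 0.0079 and 0.00034. Single libraries decided the call without these changes. Against DMSO the call was lost without DMSO replicate 1 or 3, any prexasertib replicate, 5-Ph-IAA replicate 1 or 2 or both drugs replicate 2, with log2 fold changes of -0.51 to -0.39 and an adjusted p of up to 0.146 over all 12 omissions. Against 5-Ph-IAA it was lost without any 5-Ph-IAA replicate or without both drugs replicate 1 or 2, with -0.60 to -0.44 and an adjusted p of up to 0.126. Between 5-Ph-IAA and DMSO, BLM differed by -0.05 ± 0.11, and by 0.11 on library size without scaling factors.

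RECQL4, which acts in replication initiation and fork repair (chromosome 8, 144511288 to 144517833), was highest in DMSO. It was at 88.6, 97.3 and 70.1 CPM in DMSO, 65.8, 62.7 and 67.2 CPM with prexasertib, 50.5, 56.2 and 43.6 CPM with 5-Ph-IAA and 49.3, 44.3 and 43.8 CPM with both drugs. Every library with both drugs was below every prexasertib library. RECQL4 fell when 5-Ph-IAA was added to prexasertib (-0.51 ± 0.12, adjusted p 0.0096, called in all 12 single omissions with a highest adjusted p of 0.041). On library size without scaling factors that value was -0.37 with an adjusted p of 0.060. In 5-Ph-IAA against DMSO it was at -0.77 ± 0.12. With prexasertib alone all 3 libraries were below all 3 of DMSO, at -0.39 ± 0.12 and an adjusted p of 0.085. That value became a call with the block (adjusted p 0.00049), without the libraries numbered 3 (-0.53, adjusted p 1.1e-05) and without DMSO replicate 3 (-0.51, adjusted p 0.019). Both drugs against 5-Ph-IAA gave -0.13 ± 0.12 (adjusted p 0.71).

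RECQL5, which associates with RNA polymerase II and limits recombination (chromosome 17, 75626854 to 75667154, minus strand), was the member with higher levels under 5-Ph-IAA. It was at 52.8, 63.0 and 45.9 CPM in DMSO, 43.1, 54.3 and 48.3 CPM with prexasertib, 66.3, 69.4 and 63.7 CPM with 5-Ph-IAA and 60.0, 63.3 and 51.3 CPM with both drugs. The 5-Ph-IAA libraries lay above all DMSO libraries (0.30 ± 0.12), whereas both drugs and prexasertib overlapped (0.26 ± 0.12, adjusted p 0.16). The second value was a call with the block (adjusted p 0.0060), on library size alone (0.40, adjusted p 0.044) and without the libraries numbered 3 (0.34, adjusted p 0.0076). RECQL5 shares 1724 bases with ERLN on the opposite strand and 7973 bases with SMIM5. ERLN rose in both drugs against prexasertib (0.66 ± 0.15, adjusted p 0.0095), and since the strand setting of the counts is not given, the RECQL5 values are uncertain.

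WRN, the RecQ helicase that also carries an exonuclease (chromosome 8, 31033810 to 31176138), was at 25.3, 24.1 and 33.8 CPM in DMSO, 24.9, 22.3 and 27.1 CPM with prexasertib, 23.9, 21.3 and 20.4 CPM with 5-Ph-IAA and 18.7, 20.7 and 22.0 CPM with both drugs. Libraries with both drugs lay below those with prexasertib (-0.28 ± 0.14, adjusted p 0.18), a value that passed only with the block (adjusted p 0.038). The 5-Ph-IAA value against DMSO was -0.34 ± 0.13, and -0.12 without the libraries numbered 3. RECQL, also named RECQ1 (chromosome 12, 21468910 to 21501635, minus strand), ranged from 83.3 CPM with both drugs to 120.2 CPM in DMSO. The mean was 106 ± 13.0 CPM in DMSO, 101 ± 10.1 CPM in the prexasertib group, 92.4 ± 4.10 CPM under 5-Ph-IAA and 91.4 ± 7.31 CPM under both drugs, and neighbouring groups overlapped. RECQL had no call, and both drugs against prexasertib (-0.15 ± 0.10, adjusted p 0.34) became one only without the libraries numbered 3 (-0.24, adjusted p 0.022). PYROXD1 on the opposite strand overlaps RECQL by 2341 bases.

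BRIP1, the BRCA1 partner also called FANCJ (chromosome 17, 61679139 to 61863528, minus strand), was low where the drugs were combined. It was at 25.7, 26.7 and 33.8 CPM in DMSO, 25.1, 24.5 and 33.1 CPM with prexasertib, 26.4, 28.4 and 33.8 CPM with 5-Ph-IAA and 22.8, 21.8 and 19.9 CPM with both drugs. All 3 libraries with both drugs were below the 9 others. The values did not pass the test against 5-Ph-IAA (-0.45 ± 0.14, adjusted p 0.14) or against prexasertib (-0.36 ± 0.15, adjusted p 0.11). Both passed with the block (adjusted p 0.0014 and 0.0074), and without the libraries numbered 3 the first was -0.32 (adjusted p 0.048) and the second -0.16 (adjusted p 0.31). The interaction was -0.40 ± 0.20 with an adjusted p of 1.00.

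DNA2, which trims flaps and resects DNA ends (chromosome 10, 68414064 to 68472521), was lowest with both drugs. It was at 34.1, 31.6 and 37.1 CPM in DMSO, 29.1, 33.0 and 31.0 CPM with prexasertib, 26.5, 24.9 and 29.4 CPM with 5-Ph-IAA and 24.9, 20.3 and 21.5 CPM with both drugs. Every library with both drugs was below every prexasertib library, and DNA2 fell in that comparison (-0.48 ± 0.11, adjusted p 0.0080). The call was kept in all 12 single omissions (highest adjusted p 0.041) and on library size alone (-0.34, adjusted p 0.031). In 5-Ph-IAA against DMSO the value was -0.35 ± 0.11 (-0.19 on library size alone) with no overlap between the groups. Prexasertib gave -0.14 ± 0.11 without 5-Ph-IAA (adjusted p 0.57) and -0.27 ± 0.11 with it (adjusted p 0.26).

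HELB and RTEL1 had low counts and no call. HELB, a helicase that limits end resection (chromosome 12, 66302493 to 66343643, plus strand), was at 4.67, 5.98 and 4.67 CPM in DMSO and 3.51, 4.18 and 4.12 CPM with prexasertib. These groups did not overlap, but the difference of -0.37 ± 0.21 had an adjusted p of 0.40. With 5-Ph-IAA HELB was at 4.36 ± 0.561 CPM and with both drugs at 3.67 ± 0.664 CPM (SD, n = 3). RTEL1, the regulator of telomere length that unwinds telomeric loops (chromosome 20, 63657810 to 63696253, plus strand), had 4 to 19 counts per library. Its means were 1.14 ± 0.463, 0.714 ± 0.309, 0.759 ± 0.233 and 1.25 ± 0.195 CPM in DMSO, prexasertib, 5-Ph-IAA and both drugs. Libraries with both drugs lay above those with prexasertib (0.79 ± 0.45, adjusted p 0.26) and those with 5-Ph-IAA (0.71 ± 0.44, adjusted p 0.54). Standard errors of its log2 differences were 0.44 to 0.46 in the 4 pairwise comparisons, so the differences between these means were not detectable at these counts. RTEL1 lies wholly within the readthrough gene RTEL1-TNFRSF6B on the same strand, which had 0 to 2 counts. How reads shared by these genes were counted is not given. The RTEL1 counts are therefore uncertain and may not reflect its level.

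Counted together, few of the 9 functionally chosen helicases passed the test. Prexasertib against DMSO called 0 higher and 1 lower (BLM), where 2.36% of all genes tested were called higher and 2.37% lower, and the median of the 9 was -0.16 against 0.00 over all genes. Both drugs against 5-Ph-IAA called 0 higher and 1 lower (BLM), beside 1.17% and 1.26% of all genes (median -0.19 against 0.01). Both drugs against prexasertib called 0 higher and 2 lower (RECQL4 and DNA2), beside 7.85% higher and 10.4% lower of all genes (median -0.15 against 0.01). In 5-Ph-IAA against DMSO, used for choosing and given without a reading, 0 were called higher and 2 lower (RECQL4 and DNA2), beside 9.65% and 12.2% of all genes (median -0.23). The interaction called 0 members and 0% of all genes in edgeR, where 519 genes had an unadjusted p under 0.05, while DESeq2 called 6 genes, limma-voom 0, the block 96 and the fit without the libraries numbered 3 called 187. With the block the counts in these 4 comparisons became 2, 2, 5 and 5 in the order given here, beside 18.1%, 15.5%, 37.1% and 42.6% of all genes called in either direction. Without the libraries numbered 3 they became 2, 2, 4 and 4, beside 14.2%, 13.9%, 30.5% and 36.0% of all genes. Comparisons that share a group are not independent of each other.

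**Figure D4:**
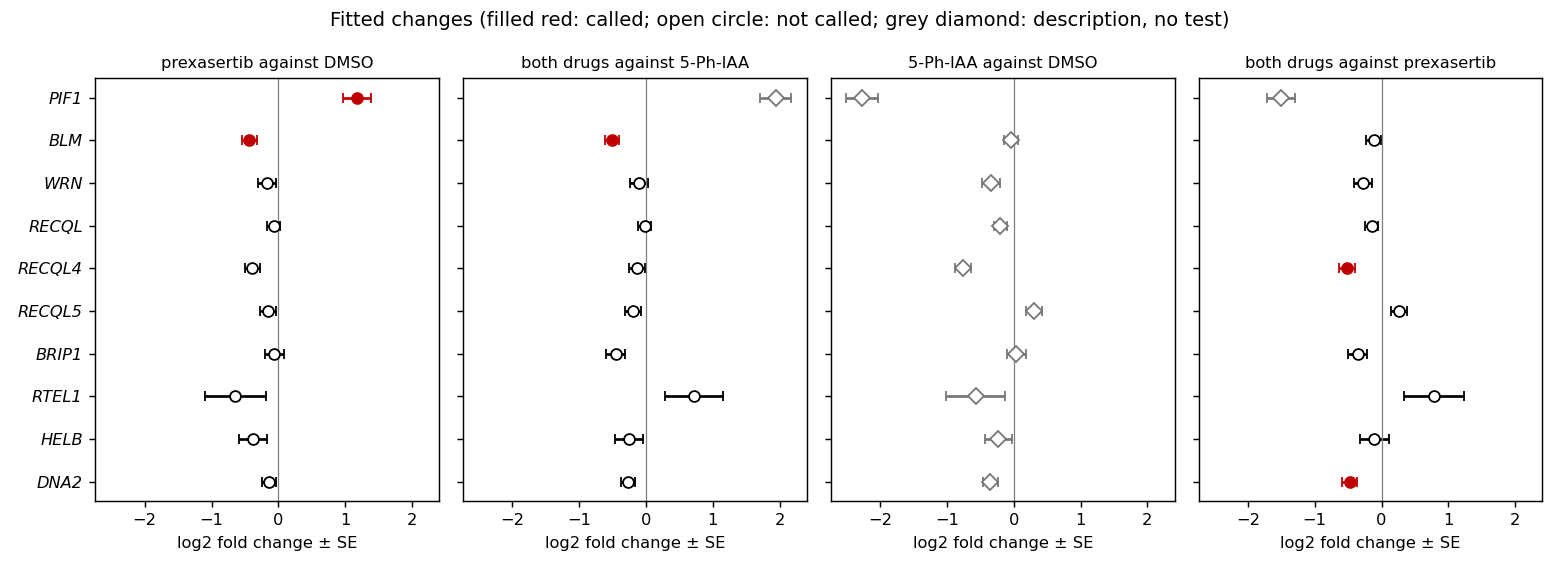
Log2 fold change ± SE of each helicase in the 4 pairwise comparisons. Red points passed an adjusted p of 0.05, open circles did not, and grey diamonds are descriptions with no test. PIF1 has the points farthest from 0 in every panel, and BLM, RECQL4 and DNA2 each have red points below 0.

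Other helicases and translocases of genome maintenance, 22 tested, showed changes in both directions. Over all genes tested 9.65% were called higher and 12.2% lower in 5-Ph-IAA against DMSO, and 7.85% and 10.4% in both drugs against prexasertib. With prexasertib the shares were 2.36% and 2.37%, and in both drugs against 5-Ph-IAA 1.17% and 1.26%. HELLS, a chromatin remodeler of the SNF2 family, fell in each comparison, by 0.43 with prexasertib (-0.43 ± 0.08, adjusted p 0.0088), by 0.38 in both drugs against 5-Ph-IAA (-0.38 ± 0.08, adjusted p 0.031), by 0.65 with 5-Ph-IAA (-0.65 ± 0.08, adjusted p 0.00012) and by 0.60 in both drugs against prexasertib (-0.60 ± 0.09, adjusted p 0.00035). RAD54L, a translocase of homologous recombination, was the only other one called with prexasertib (-0.60 ± 0.15, adjusted p 0.036). Both it and the HELLS value against 5-Ph-IAA are named after their values were seen. With 5-Ph-IAA against DMSO 3 rose and 4 fell, among them ERCC6 of transcription-coupled repair (0.98 ± 0.15, adjusted p 0.00051) and the mitochondrial helicase TWNK (-0.62 ± 0.11, adjusted p 0.0013). In both drugs against prexasertib 3 rose and 3 fell, with HELQ (0.77 ± 0.15, adjusted p 0.0025) and ERCC3, a helicase of TFIIH (0.39 ± 0.08, adjusted p 0.0034), among the higher. The list medians were -0.05, -0.17, -0.04 and -0.09 for the comparisons in the order prexasertib, both drugs against 5-Ph-IAA, 5-Ph-IAA and both drugs against prexasertib. With the block the same comparisons gave 0 higher and 5 lower, 1 and 9, 5 and 7, and 5 and 7. Over all 14658 genes the block called 1227 higher and 1432 lower, 1144 and 1128, 2780 and 3465, and 2528 and 2913. On library size alone the higher calls were 6 with 5-Ph-IAA and 5 in both drugs against prexasertib, beside 3018 and 2569 of all 14658 genes. The 2 lower calls with prexasertib became 1 without DMSO replicate 1 or 2, any prexasertib replicate or 5-Ph-IAA replicate 1 or 2. The HELLS call against 5-Ph-IAA was lost without replicate 1 or 2 of 5-Ph-IAA or of both drugs. The 3 higher calls with 5-Ph-IAA became 1 when 5-Ph-IAA replicate 1 or 2 or DMSO replicate 1 was left out, and the 3 lower calls in both drugs against prexasertib became 5 without 5-Ph-IAA replicate 3.

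The replicative helicase and its loaders (MCM subunits, CDC45, GINS and licensing factors, 18 genes) had most of their calls where TRRAP was degraded, all lower. All genes tested also had most calls there, with 12.2% lower in 5-Ph-IAA against DMSO and 10.4% in both drugs against prexasertib. Their shares lower were 2.37% with prexasertib and 1.26% in both drugs against 5-Ph-IAA. In 5-Ph-IAA against DMSO 12 fell and 0 rose (median -0.62), and in both drugs against prexasertib 12 fell and 0 rose (median -0.58), with 9 to 13 lower in each when single libraries were left out. MCM3 fell by 0.96 (-0.96 ± 0.13, adjusted p 0.00022) and MCM4 by 0.78 (-0.78 ± 0.10, adjusted p 0.00012) with 5-Ph-IAA, and GINS1 by 0.67 (-0.67 ± 0.09, adjusted p 0.00027) when it was added to prexasertib. Prexasertib against DMSO called 5 lower and 0 higher (median -0.21), with the licensing factor CDC6 at -0.84 ± 0.12 (adjusted p 0.0015) and MCM10 at -0.67 ± 0.10 (adjusted p 0.0017). Both drugs against 5-Ph-IAA called 4 lower and 0 higher (median -0.14), with MCM10 at -0.80 ± 0.10 (adjusted p 0.00067) and CDC6 at -0.56 ± 0.12 (adjusted p 0.027). The last count was 1 without 5-Ph-IAA replicate 1, both drugs replicate 1 or both drugs replicate 2, and 2 without 5-Ph-IAA replicate 2 or 3. The count with prexasertib was 3 without DMSO replicate 1 or 3, replicate 1 or 2 of prexasertib, of 5-Ph-IAA or of both drugs, and 9 with the block. The block called 1432 of all 14658 genes lower with prexasertib.

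Partners of the helicases, 26 genes, had more calls lower than higher in each comparison. In the order used here, 2.37%, 1.26%, 12.2% and 10.4% of all genes tested were called lower. The shares called higher were 2.36%, 1.17%, 9.65% and 7.85%. Prexasertib against DMSO called 5 lower and 1 higher (median -0.13). EXO1, the nuclease of end resection, fell by 1.26 (-1.26 ± 0.20, adjusted p 0.0034), TOPBP1, which binds BLM, by 0.45 (-0.45 ± 0.07, adjusted p 0.0037), and PCNA, the sliding clamp, rose by 0.33 ± 0.08 (adjusted p 0.027). Both drugs against 5-Ph-IAA called 4 lower and 1 higher (median -0.16), with BARD1 at -0.92 ± 0.12 (adjusted p 0.00099), BRCA1, the partner of BRIP1, at -0.44 ± 0.07 (adjusted p 0.0024) and PCNA at 0.36 ± 0.08 (adjusted p 0.023). With 5-Ph-IAA against DMSO 8 fell and 2 rose (median -0.26), among them FANCA (-0.61 ± 0.10, adjusted p 0.00098) and NBN (0.21 ± 0.07, adjusted p 0.047). In both drugs against prexasertib 9 fell and 0 rose (median -0.23), with BARD1 at -0.82 ± 0.12 (adjusted p 0.00055). Single omissions gave lower counts of 2 to 7, 3 to 5, 5 to 10 and 5 to 10, and the block gave 11, 10, 16 and 15. Over all 14658 genes the block called 1432, 1128, 3465 and 2913 lower. With prexasertib the lower count was 2 without prexasertib replicate 1 and 3 without any DMSO replicate, prexasertib replicate 2, 5-Ph-IAA replicate 1 or 2 or both drugs replicate 2. With 5-Ph-IAA it was 5 without 5-Ph-IAA replicate 1 or 2, and in both drugs against prexasertib 5 without both drugs replicate 1. The 2 higher calls with 5-Ph-IAA became 0 without DMSO replicate 1, 5-Ph-IAA replicate 1 or 2 or both drugs replicate 1. They became 1 without DMSO replicate 2 or 3, any prexasertib replicate or both drugs replicate 2. The PCNA call was lost without any prexasertib replicate or DMSO replicate 1 or 2 in the first comparison, and without 5-Ph-IAA replicate 1 or 2 or any replicate of both drugs in the second. On library size alone the list had 4 lower and 3 higher both in 5-Ph-IAA against DMSO and in both drugs against prexasertib, and 8 lower with prexasertib. Over all 14658 genes that setting called 986 lower and 3018 higher, 889 and 2569, and 496 lower with prexasertib. TOP3A, which acts with BLM, was also called lower with prexasertib (-0.62 ± 0.16, adjusted p 0.040), a gene named after its value was seen. In both drugs against 5-Ph-IAA, where BLM was called, TOP3A was not (-0.26 ± 0.16, adjusted p 0.54). RMI1 and RMI2, also on the list of partners, were not called with prexasertib (adjusted p 0.18 and 0.33). They too are named after their values were seen.

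Of 14 telomere genes tested, none was called with prexasertib in either background (1 higher and 2 lower, and 1 higher and 0 lower, with the block). Over all 14658 genes the block called 1227 higher and 1432 lower, and 1144 and 1128, in these 2 comparisons. In 5-Ph-IAA against DMSO 2 rose and 2 fell, beside 9.65% and 12.2% of all genes tested. Among them were the shelterin protein TERF2 at 0.59 ± 0.08 (adjusted p 0.00015) and POT1 at 0.38 ± 0.10 (adjusted p 0.013). DKC1, the pseudouridine synthase of telomerase and box H/ACA RNPs, was at -1.18 ± 0.10 (adjusted p 3.6e-06). DKC1 and TERF2 were also the 2 genes called in both drugs against prexasertib (-1.05 ± 0.10, adjusted p 1.1e-05, and 0.40 ± 0.08, adjusted p 0.0026), named after their values were seen. On library size alone the telomere genes had 5 higher and 2 lower in 5-Ph-IAA against DMSO and 4 higher and 1 lower in both drugs against prexasertib. Of all 14658 genes that setting called 3018 higher and 986 lower, and 2569 and 889. Of the 2 higher calls with 5-Ph-IAA, 1 was left when 5-Ph-IAA replicate 1 or 2 or DMSO replicate 3 was omitted. The S-phase reference genes, 20 in number, had 3 lower with prexasertib, 3 in both drugs against 5-Ph-IAA, 10 with 5-Ph-IAA and 6 in both drugs against prexasertib. They had 0 higher in any of these, and the shares lower over all genes tested were 2.37%, 1.26%, 12.2% and 10.4%. The 10 became 5 without DMSO replicate 3 and 6 without 5-Ph-IAA replicate 1 or 2, and with the block the counts were 9, 5, 14 and 11. On library size alone they were 5, 3, 5 and 4. Over all 14658 genes the lower calls were 1432, 1128, 3465 and 2913 with the block. They were 496, 335, 986 and 889 on library size alone. UHRF1 was lower with prexasertib (-0.67 ± 0.09, adjusted p 0.00091) and in both drugs against 5-Ph-IAA (-0.82 ± 0.09, adjusted p 0.00030), where CHAF1A was lower too (-0.58 ± 0.09, adjusted p 0.0022). RRM2 was lower with 5-Ph-IAA (-1.89 ± 0.14, adjusted p 1.8e-06). The 3 S-phase genes called with prexasertib were lower, as BLM was, whereas PIF1 rose. The 6 called in both drugs against prexasertib were lower, as RECQL4 and DNA2 were. Of the 20 S-phase genes, 17 and 14 were not called in these 2 comparisons. BLM differed by -0.05 ± 0.11 between 5-Ph-IAA and DMSO, and RECQL4 and DNA2 were not called with prexasertib (adjusted p 0.085 and 0.57). The part of S-phase genes in the changes of the helicases was not tested.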

How the data were processed

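Poly(A) RNA of 12 libraries was prepared with a directional kit, per the labels' protocols. The authors deposited raw counts per gene, whole numbers that were not normalized. Build hg38, limma 3.58.1 and featureCounts 2.0.8 come from the submitters' processing notes. No aligner, annotation or strand setting is stated: not given in the sources used here. Of 28395 gene IDs, 27745 matched the RefSeq gene table. The 13 CUT&RUN samples of the series were not analysed here.

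Counts were fitted in edgeR 4.0.16 (R 4.3.3) with filterByExpr (minimum count 10, minimum total 15; 99.92% of counts kept), TMM factors and a robust quasi-likelihood model of the 4 groups. Libraries without 5-Ph-IAA had TMM factors of 0.925 to 0.978, and those with it 1.02 to 1.10. Benjamini-Hochberg adjustment ran over 14658 genes, and an adjusted p under 0.05 was a call. SE was computed as the absolute log2 fold change over the root of F. CPM levels rest on TMM-scaled library sizes, or on library size alone for cell type markers, and a prior count of 2 entered log2 CPM. The fit was also run on simulated libraries without a replicate effect, which cannot show how it handles the offset of the libraries numbered 3. At 10830048 to 17789482 counts per library, the low counts of RTEL1 and HELB limit their precision. An exact permutation p of 3 libraries against 3 cannot be below 0.1.

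Deviations of same-numbered libraries from their group means correlated at 0.22 to 0.63 in 18 of 18 pairs, against -0.50 to 0.37 for other pairs. The lowest same-number value was 0.22 for number 1, 0.26 for number 2 and 0.53 for number 3. Only number 3 thus lay wholly above the other pairs. Deviations within a group balance each other, and number 3 stood apart, so these values cannot show whether numbers 1 and 2 were paired. Blocked values are printed where they change a call. No pair of libraries agreed within sampling noise. DESeq2 1.42.0, limma-voom, library size alone, other filters, the block and omission of libraries were alternatives.

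Named genes were the 10 members, TRRAP, the 5 genes with the highest Pearson r to PIF1 (mean log2 CPM of at least 1), and, for each list with at least 3 calls in a comparison, the 2 of lowest adjusted p in its commoner direction and 1 in the opposite direction. Lists were other genome-maintenance helicases and translocases (HFM1 not tested), replicative helicase and loaders, partners, telomere maintenance (TEN1 not tested), mitotic and S-phase reference genes. Members, lists and tests were chosen with earlier results of these data known. The values of 1 gene that this rule names are not reported here. Overlap with other genes was looked up for the members only. Promoter letters are from RefSeq windows (GRCh38.p14) found for 7 of 10 members.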

Additional observations from a re-analysis of the deposited data

How the results depend on the processing

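With the replicate number as a block, 2 of the 9 functionally chosen helicases were called in prexasertib against DMSO, 2 in both drugs against 5-Ph-IAA, 5 in 5-Ph-IAA against DMSO and 5 in both drugs against prexasertib. These stood beside 18.1%, 15.5%, 42.6% and 37.1% of all genes. The unblocked fit called 1, 1, 2 and 2. With the block, 3 of the 5 genes most like PIF1 were found again. Without the libraries numbered 3 the counts were 2, 2, 4 and 4, beside 14.2%, 13.9%, 36.0% and 30.5% of all genes, and 1 of the 5 genes was found again. PIF1 is not in these counts. Outside 5-Ph-IAA against DMSO, where members are described without p-values, the block changed no call of a member other than those printed beside it.

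Leaving out each library in turn gave 0 to 1 of those 9 called in prexasertib against DMSO, beside 2.06% to 5.28% of all genes. In both drugs against 5-Ph-IAA it gave 0 to 1, beside 1.05% to 3.0% of all genes. In 5-Ph-IAA against DMSO it gave 1 to 3, beside 14.1% to 22.9% of all genes (1 without replicate 1 or 3 of DMSO or replicate 1 or 2 of 5-Ph-IAA). It gave 2 in both drugs against prexasertib, beside 12.1% to 19.1% of all genes. It gave 0 in the interaction, beside 0% of all genes, and 2 to 5 of the genes most like PIF1. DESeq2, limma-voom, library size alone and both other filters left the 5 counts over those 9 unchanged in number. Over all genes these settings called 2.95% to 6.74% in prexasertib against DMSO and 1.62% to 4.48% in both drugs against 5-Ph-IAA. They called 13.0% to 27.3% in 5-Ph-IAA against DMSO and 11.0% to 23.6% in both drugs against prexasertib. RTEL1 dropped out under the strict filter. No member reversed under any of these where it had been called. On library size alone, however, the genes changed. RECQL5, as a higher call, took the place of DNA2 in 5-Ph-IAA against DMSO (0.46, with DNA2 at -0.19), where 27.3% of all genes were called. In both drugs against prexasertib RECQL5 (0.40, adjusted p 0.044) took the place of RECQL4 (-0.37, adjusted p 0.060).

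Over all genes, the block called 1227 higher and 1432 lower in prexasertib against DMSO (346 and 347 without it), 1144 and 1128 in both drugs against 5-Ph-IAA (171 and 184), 2780 and 3465 in 5-Ph-IAA against DMSO (1414 and 1787) and 2528 and 2913 in both drugs against prexasertib (1150 and 1524). On library size alone the median gene moved by 0.16 in 5-Ph-IAA against DMSO and 0.15 in both drugs against prexasertib, and the share of calls that were higher was 37.3%, 31.6%, 75.4% and 74.3% in the 4 comparisons in the order of the first sentence, against 49.9%, 48.2%, 44.2% and 43.0%. The cause was not tested.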
